A study of Homo sapiens with 12 samples.

Results

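Type I and type III interferons are secreted proteins that warn neighbouring cells of infection and of cell stress. IFNB1 (interferon beta) binds a receptor made of IFNAR1 and IFNAR2, whose kinases phosphorylate STAT2, which acts with IRF9 in the transcription factor complex ISGF3, and that complex switches on the interferon-stimulated genes. IRF3 and IRF7 are the factors that start transcription of the interferon genes themselves, and IRF1 is a factor that interferon gamma, inflammatory cytokines and type I interferon all induce. This account follows 9 such genes, IFNB1, IFNL1, IFNAR1, IFNAR2, STAT2, IRF9, IRF7, IRF1 and IRF3, chosen by name from the 35579 genes for which estimated counts could be summed. All 9 had a row in every library, and 8 of them were among the 15098 genes that passed the filter on low counts, while IFNL1 did not pass.

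The libraries came from WM-266-4, an established human melanoma cell line. All 4 groups carried a stable lentiviral knock-down of TYRO3, a receptor tyrosine kinase of the TAM family. All were then transfected with a pEZY-myc-his plasmid and, per the study's methods, kept overnight without serum before lysis. The plasmid encoded GFP in the control group, wild-type TYRO3 in the WT group, TYRO3 with I449A, a substitution meant to block gamma-secretase cleavage, in the ΔGS group, and TYRO3 with P408A, L409P and G419P, meant to block shedding by ADAM proteases, in the ΔADAM group. Each group had 1 library in each of 3 numbered experiments, which gives 12 libraries. There was no untransfected library, so transfection itself is shared by all groups, and in a bulk sample more cells expressing a gene and more RNA per cell cannot be told apart.

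Estimated counts per library ran from 18365999 to 38184838, apart from the GFP library of experiment 1, which held 4008293. TYRO3 was at 52.3 ± 4.67 CPM (counts scaled to library size, SD, n = 3) with GFP and at 2075 ± 882, 2260 ± 1247 and 1893 ± 1204 CPM with WT, ΔGS and ΔADAM, so that every library labelled with a TYRO3 plasmid was above every GFP library. All 7 melanocyte lineage markers had counts in every library. Markers of immune, keratinocyte and endothelial cells were low, with PTPRC, the leukocyte antigen CD45, at no more than 0.502 CPM, and KRT1 and KRT5 at 0 in every library. The monocyte marker CD14 reached 1.05 CPM and the endothelial marker PECAM1 2.02 CPM. The endothelial markers summed to 1.26 to 1.97 CPM with GFP, 1.20 to 2.10 with WT, 0.787 to 2.42 with ΔGS and 0.974 to 2.25 with ΔADAM, and the keratinocyte markers to at most 0.442 CPM in any library. The 6 immune markers summed to 0.647 to 1.32 CPM with GFP, 0.799 to 0.879 with WT, 1.01 to 1.44 with ΔGS and 0.765 to 1.71 with ΔADAM, and ITGAM, the 1 of them tested, was at log2 fold changes of 1.58 (adjusted p = 0.160) with WT, 2.23 (adjusted p = 0.0337) with ΔGS and 1.94 (adjusted p = 0.0524) with ΔADAM, called with ΔGS. ITGAM was near the floor, with 0 to 19 counts and at most 0.698 CPM in a library. It could pass the filter on low counts only through the libraries where it was highest. The part of these markers in the results on interferon genes was not tested. The summed melanocyte markers ranged from 2232 to 2722 CPM with GFP, 1288 to 2495 with WT, 1336 to 2222 with ΔGS and 1329 to 2012 with ΔADAM. Of the 7 markers, 0, 2 and 2 were called lower with WT, ΔGS and ΔADAM, and none higher. The called share of all genes tested was 2.35%, 4.69% and 5.19%. Median log2 fold changes of the markers were -0.49, -0.44 and -0.49, and 1 of the 7 was positive with each construct. In experiments 2 and 3 alone none was called. The part of these differences in the results on interferon genes was not tested.

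The question was whether expressing TYRO3 from a plasmid, as wild type or with substitutions meant to reduce its cleavage, went with a change in these genes. STAT2, IRF9 and IRF1 were higher with each of the TYRO3 constructs than with GFP, and the receptor chains and IRF3 were not called in any comparison. IRF1 rose most among the 3, by 1.40 to 1.71 on the log2 scale, and STAT2 and IRF9 rose by 0.61 to 0.81. A gene was called when its adjusted p was at most 0.05 (edgeR quasi-likelihood test, experiment as a block) and its fold change was over 1.5. By that rule 3 of the 8 tested genes were called with WT, against 2.35% of all genes tested, 3 of 8 with ΔGS, against 4.69%, and 3 of 8 with ΔADAM, against 5.19%. The 3 comparisons share their control libraries, and these p-values measure the spread between libraries of 1 cell line. The genes were chosen with earlier results of these data known, so the counts beside the share over all genes are a description only.

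**Figure D1:**
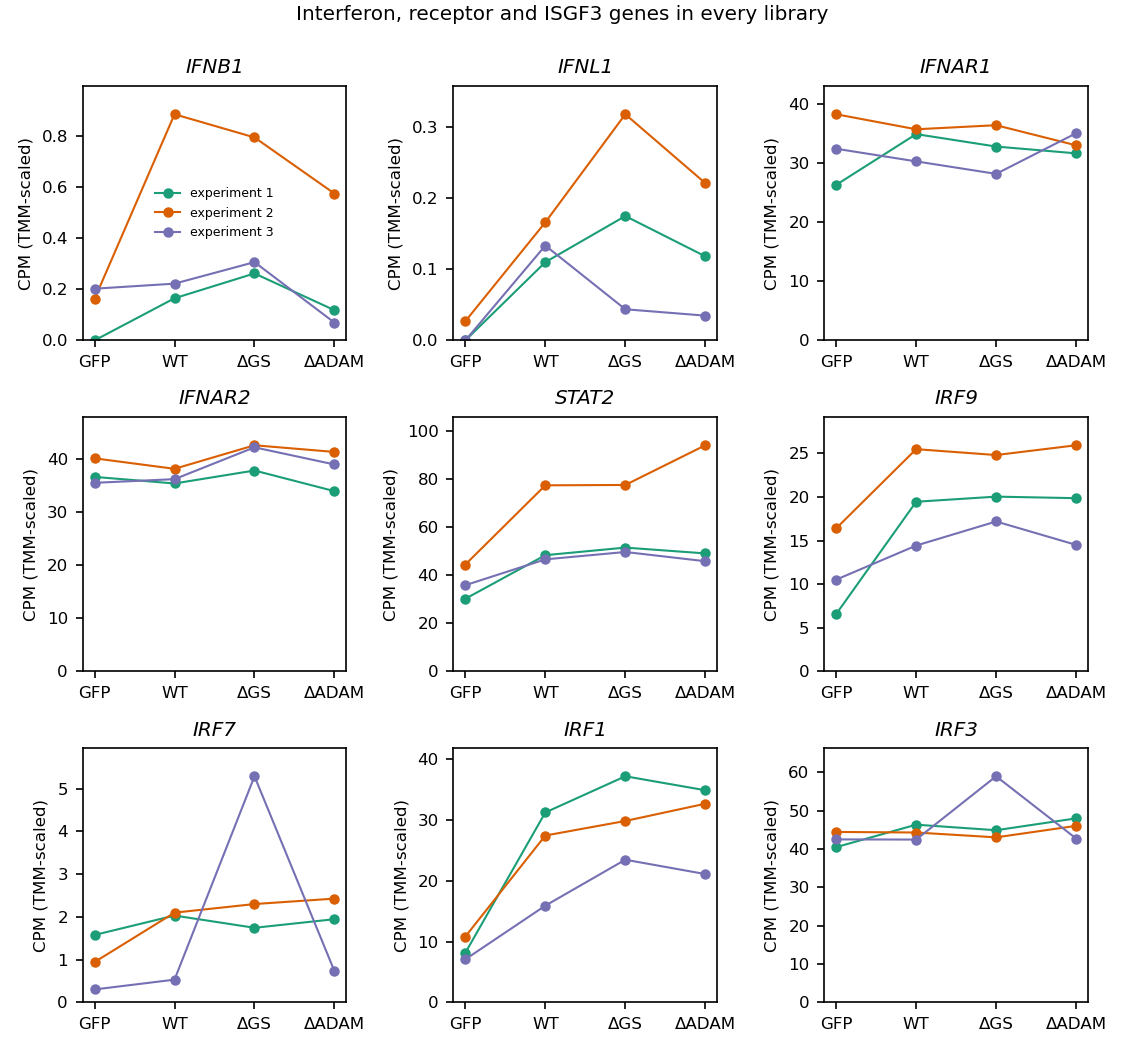
Each panel plots 1 gene, with TMM-scaled CPM on a linear axis from 0 against the 4 groups, and each line joins the 4 libraries of 1 experiment. In IRF1, STAT2 and IRF9 every line climbs from GFP to all 3 TYRO3 constructs, while the single high point in IRF7, 5.29 CPM, is the ΔGS library of experiment 3.

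Of the interferon genes, IFNB1 gave few counts in any library. Its estimated counts in experiments 1, 2 and 3 were 0, 6 and 4 with GFP, and 3, 16 and 5 with WT. With ΔGS they were 6, 20 and 7, and with ΔADAM 4, 13 and 2. The libraries of experiment 2 with a TYRO3 construct stood highest, and the groups overlapped. IFNB1 passed the filter on low counts only through those 3 libraries, so it could hardly have been tested without being higher in them. Its log2 fold change over GFP was 1.59 (SE 0.64, adjusted p = 0.179) with WT, 1.78 (SE 0.62, adjusted p = 0.0956) with ΔGS and 0.83 (SE 0.66, adjusted p = 0.457) with ΔADAM. It was not called, and a 0 in the shallow GFP library of experiment 1 allowed up to 0.789 CPM, above the level in 9 of the 11 other libraries.

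IFNL1 (interferon lambda 1, a type III interferon that acts mainly on epithelial cells) gave 0, 1 and 0 counts with GFP, 2, 3 and 3 with WT, 4, 8 and 1 with ΔGS and 4, 5 and 1 with ΔADAM. Every TYRO3 library held at least 1 count, and only 1 GFP library did. The 0 in the shallow GFP library of experiment 1 allowed up to 0.789 CPM. That is above the highest IFNL1 level in any library, 0.317 CPM with ΔGS in experiment 2. Summed over the experiments, 8 counts with WT against 1 with GFP gave a ratio of 8.25, with an exact 95% interval of 1.11 to 366.1. The ratio was 11.1 (1.67 to 472.2) with ΔGS and 7.11 (1.01 to 308.7) with ΔADAM. These intervals cover counting error only and leave out the spread between libraries. With no filter on low counts the edgeR fit gave IFNL1 adjusted p-values of 0.260, 0.143 and 0.259 in the same order.

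The other 19 interferon ligands examined, from IFNA1 to IFNG, held at most 6 counts in any library, and none passed the filter. Their summed level was 0.101 to 0.263 CPM with GFP, 0.0444 to 0.497 with WT, 0.198 to 0.306 with ΔGS and 0.104 to 0.236 with ΔADAM. IFNG, IFNA2 and IFNK were at 0 in all 12 libraries.

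The promoters were searched for sites of the factors that act in this pathway. The RefSeq promoter table (GRCh38.p14, from 250 bases before to 50 after the start) had entries for 6 of the 9 genes, and 3 motifs were searched on both strands. These were ISRE, the site for ISGF3 and IRF factors (GAAANNGAAA), GAS, the site for STAT dimers (TTCNNNGAA), and an NF-kB site (GGGANNTTCC), found in 3.57%, 7.66% and 1.61% of 35116 promoters. Windows of 60 bases are shown for the interferon genes, on the strand of the gene, with the matched letters in capitals. The NF-kB match of IFNB1 lay 66 to 57 bases upstream of the start (chr9:21077974-21078033, minus strand), and its GAS match 218 to 210 bases upstream (chr9:21078126-21078185). The 2 overlapping ISRE matches of IFNL1, on the opposite strand, spanned 214 to 199 bases upstream (chr19:39296168-39296227, plus strand).
IFNB1 NF-kB: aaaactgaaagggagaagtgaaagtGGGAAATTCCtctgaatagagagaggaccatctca
IFNB1 GAS: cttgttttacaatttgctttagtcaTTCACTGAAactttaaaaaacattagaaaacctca
IFNL1 ISRE: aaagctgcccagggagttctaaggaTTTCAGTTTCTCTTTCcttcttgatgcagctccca
A match is a description of letters and not of binding.

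The receptor chains were expressed evenly. IFNAR1 (chr21:33324477-33359862, GRCh38) was at 26.3, 38.2 and 32.4 CPM with GFP and between 28.2 and 36.4 CPM in the 9 libraries with a TYRO3 construct. All of the latter lay inside the range of the GFP libraries. Its log2 fold changes were 0.03, -0.02 and 0.02 with WT, ΔGS and ΔADAM, with 95% intervals that together ran from -0.28 to 0.29. In IFNAR1, 99.4% of the counts fell on 1 transcript, IFNAR1-201.

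IFNAR2 (chr21:33229901-33265675) was at 36.6, 40.0 and 35.4 CPM with GFP and between 33.9 and 42.5 CPM in the other libraries. Here too the groups overlapped. The log2 fold changes were -0.02, 0.13 and 0.03, and the 95% intervals together ran from -0.20 to 0.31. Of the exonic bases of IFNAR2, 44.2% are shared with the readthrough gene AP000295.1, so that the counts depend on how kallisto split those reads. None of the 7 other receptor chains and kinases tested (IFNGR1, IFNGR2, IFNLR1, IL10RB, JAK1, JAK2 and TYK2) was called in any comparison with GFP. The values nearest to the threshold were those of IFNGR1, a chain of the interferon gamma receptor, at -0.29 with WT (adjusted p = 0.145) and -0.29 with ΔADAM (adjusted p = 0.0977).

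STAT2 (chr12:56341597-56360155), the STAT protein particular to type I and type III interferon signaling, was at 30.2, 44.5 and 35.9 CPM with GFP in experiments 1, 2 and 3. It was at 48.4, 77.5 and 46.7 CPM with WT, at 51.5, 77.6 and 49.7 CPM with ΔGS, and at 49.1, 94.1 and 45.9 CPM with ΔADAM. The lowest TYRO3 library lay just above the highest GFP library, and experiment 2 was highest in every group. STAT2 rose by 0.61 (SE 0.12, adjusted p = 0.0240) with WT, 0.67 (SE 0.12, adjusted p = 0.0109) with ΔGS and 0.71 (SE 0.12, adjusted p = 0.00759) with ΔADAM, and was higher in 3 of 3 experiments each time. These are folds of 1.53, 1.59 and 1.64, close to the fold of 1.5 that the call required.

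The partner of STAT2 in ISGF3, IRF9 (chr14:24161053-24166565), was at 6.57, 16.4 and 10.5 CPM with GFP and at 19.4, 25.5 and 14.4 CPM with WT. It was at 20.0, 24.8 and 17.2 CPM with ΔGS and at 19.9, 25.9 and 14.5 CPM with ΔADAM. The groups overlapped across experiments, because the GFP library of experiment 2 lay above the WT and ΔADAM libraries of experiment 3, but within each experiment every TYRO3 library was above its GFP library. IRF9 rose by 0.73 (SE 0.16, adjusted p = 0.0398) with WT, 0.81 (SE 0.16, adjusted p = 0.0169) with ΔGS and 0.75 (SE 0.16, adjusted p = 0.0200) with ΔADAM, again in 3 of 3 experiments.

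The size of the IRF9 difference varied between experiments. With WT the log2 ratio to GFP was 1.54 in experiment 1, 0.64 in experiment 2 and 0.45 in experiment 3. The GFP library of experiment 1 held 25.2 estimated counts of IRF9, and without it the log2 fold change with WT was 0.57 (adjusted p = 0.0407), under the fold of 1.5. Of the fits that each left out 1 of the 12 libraries, IRF9 was called in 2 with WT, 11 with ΔGS and 9 with ΔADAM, and the WT call held only without the WT library or the ΔGS library of experiment 3. For STAT2 those counts were 8, 11 and 10. The STAT2 call with WT was lost without the GFP or the WT library of experiment 1 or 2, the ΔGS call without the GFP library of experiment 2, and the ΔADAM call without the GFP or the ΔADAM library of experiment 2.

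IRF1 (chr5:132481609-132490798) was at 8.15, 10.8 and 7.08 CPM with GFP in experiments 1, 2 and 3. With WT it was at 31.2, 27.4 and 15.9 CPM, with ΔGS at 37.1, 29.8 and 23.4 CPM, and with ΔADAM at 34.8, 32.6 and 21.1 CPM. No TYRO3 library overlapped with a GFP library, and among the TYRO3 libraries experiment 3 was lowest in each group. IRF1 rose by 1.40 (SE 0.13, adjusted p = 0.00105) with WT, 1.71 (SE 0.13, adjusted p = 0.000228) with ΔGS and 1.67 (SE 0.13, adjusted p = 0.000241) with ΔADAM, which are folds of 2.64, 3.26 and 3.17. The calls held in each of the 12 fits that left out 1 library. IRF1 overlaps C5orf56 and AC116366.3 on the opposite strand, and whether the counting used strand is not given in the sources used here.

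These calls rested on comparing libraries within an experiment. Without the replicate block, 0 of the 8 genes were called with any construct, with adjusted p-values of 0.238, 0.0948 and 0.0890 for IRF1, 0.459, 0.314 and 0.247 for STAT2 and 0.411, 0.255 and 0.251 for IRF9 with WT, ΔGS and ΔADAM. With a single term for experiment 1 against the others, the batch that the study's methods describe, IRF1 was called with ΔGS and ΔADAM and not with WT (adjusted p = 0.0860). STAT2 was not called in that fit (adjusted p of 0.296, 0.195 and 0.144 with WT, ΔGS and ΔADAM), and neither was IRF9 (0.277, 0.178 and 0.184).

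**Figure D2:**
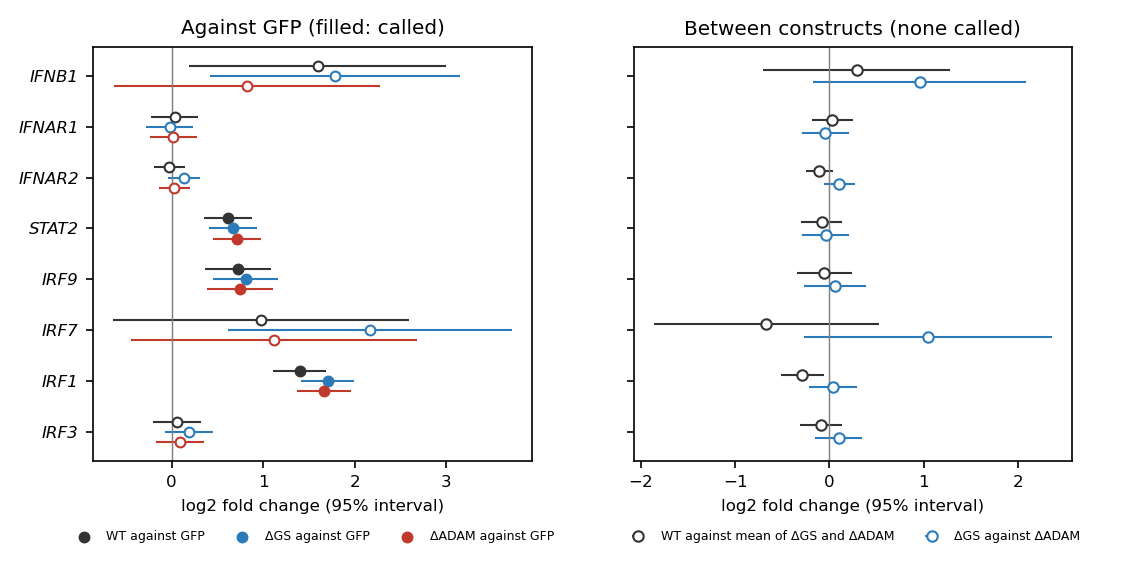
The left panel plots the log2 fold change over GFP of the 8 genes tested and the right panel the differences between constructs, each with its 95% interval from the edgeR fit. Filled points are called. STAT2, IRF9 and IRF1 stand to the right of 0 with all 3 constructs, IFNB1 and IRF7 have wide intervals, and no point is filled on the right.

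Of the genes that rose, IRF1 and IRF9 had a GAS match in their promoters, and these windows are shown because both genes were called in all 3 comparisons. The match of IRF1 lay 124 to 116 bases upstream of the start (chr5:132490863-132490922, minus strand), and that of IRF9 lay 63 to 55 bases upstream (chr14:24161177-24161236, plus strand).
IRF1 GAS: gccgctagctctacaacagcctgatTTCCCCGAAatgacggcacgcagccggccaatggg
IRF9 GAS: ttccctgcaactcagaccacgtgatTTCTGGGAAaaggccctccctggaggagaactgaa
None of the 3 motifs was found in the entries for STAT2 and IFNAR1, which says only that those letters are not in those windows. IFNAR2, IRF7 and IRF3 had no entry.

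IRF7, which amplifies interferon production and is itself an interferon-stimulated gene, was low and uneven. It was at 1.58, 0.944 and 0.303 CPM with GFP and at 2.03, 2.10 and 0.533 CPM with WT. With ΔGS it was at 1.75, 2.30 and 5.29 CPM, and with ΔADAM at 1.95, 2.43 and 0.730 CPM. In each experiment the TYRO3 libraries were above GFP, but the groups overlapped and 1 library, ΔGS in experiment 3, stood far above the rest. The log2 fold changes were 0.98 (SE 0.73, adjusted p = 0.483), 2.17 (SE 0.70, adjusted p = 0.0788) and 1.12 (SE 0.71, adjusted p = 0.340), and IRF7 was not called.

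Most of the excess of IRF7 in that library lay on 1 transcript. Of its 121.0 estimated counts, 71.9% fell on the protein-coding transcript IRF7-207, which had 0 counts in the other 11 libraries. In 10 of those 11 libraries all IRF7 counts lay on transcripts annotated as retained introns, and in the GFP library of experiment 1 46.9% of its 6.50 counts did. In unrounded counts the retained-intron transcripts of IRF7 were at 1.48 CPM in the ΔGS library of experiment 3, against 0.285 with GFP, 0.548 with WT and 0.739 with ΔADAM in the same experiment. Over all genes the retained-intron share of a library was at most 4.89%. Without the ΔGS library of experiment 3, IRF7 was called with ΔADAM (1.10, adjusted p = 0.0310), and its log2 fold change was 0.95 with ΔGS and its difference between ΔGS and ΔADAM -0.15.

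The other rising genes were also counted on several kinds of transcript. Of the STAT2 counts over all libraries, 38.7% lay on STAT2-207, a processed transcript with no annotated coding sequence, and 33.5% on the coding STAT2-201. The protein-coding share of STAT2 ran from 25.2% in the ΔGS library of experiment 3 to 66.9% in the WT library of experiment 3. Counted on protein-coding transcripts alone, STAT2 had log2 fold changes of 0.56 (adjusted p = 0.307), 0.10 (adjusted p = 0.871) and 0.45 (adjusted p = 0.359) with WT, ΔGS and ΔADAM and was not called.

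IRF9 went the other way. Its protein-coding share was 2.59% in the GFP library of experiment 1, 40.4% and 32.6% in the other GFP libraries, and 35.2% to 56.7% in the TYRO3 libraries. On protein-coding transcripts alone the IRF9 log2 fold changes were 1.28 (adjusted p = 0.0692) with WT, 1.51 (adjusted p = 0.0276) with ΔGS and 1.27 (adjusted p = 0.0427) with ΔADAM. The WT difference was thus not called. Coding IRF9 transcripts were at only 0.171 CPM in the shallow GFP library of experiment 1, against 6.62 and 3.43 CPM in the other GFP libraries. The part of that library in these larger fold changes was not tested. IRF9 also shares 48.4% of its exonic bases with the readthrough gene AL136295.5, and with the counts of that gene added its log2 fold changes were 0.60 (adjusted p = 0.0718), 0.67 (adjusted p = 0.0325) and 0.64 (adjusted p = 0.0358). IRF1 was the plainest case, with a protein-coding share of 87.1% to 95.6% in every library.

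**Figure D3:**
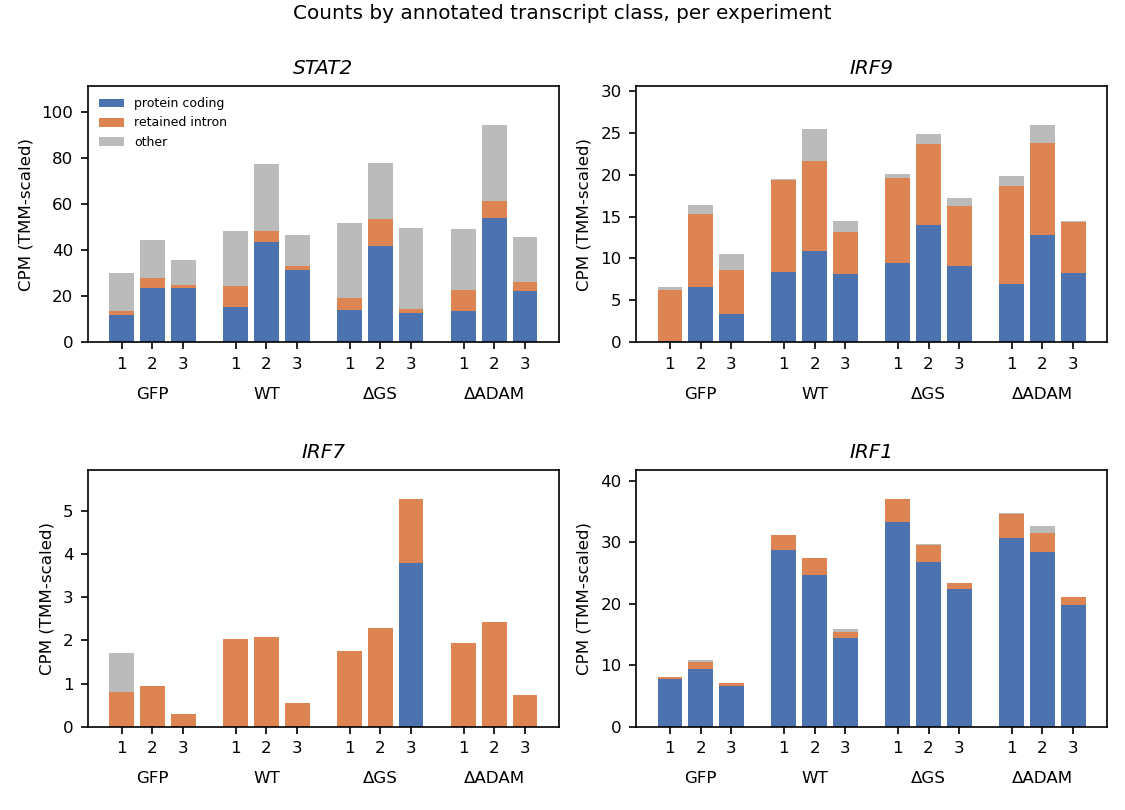
Stacked bars give the TMM-scaled CPM of STAT2, IRF9, IRF7 and IRF1 in each library by the annotated class of transcript, with the 3 experiments side by side within each group. IRF1 is nearly all protein coding, IRF9 in the first GFP bar is nearly all retained intron, and the only visible coding IRF7 is in the third ΔGS bar.

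IRF3, the factor that is present before infection and is activated by phosphorylation, was at 40.5, 44.5 and 42.5 CPM with GFP. It was at 46.4, 44.3 and 42.5 CPM with WT, at 44.9, 43.1 and 59.0 CPM with ΔGS and at 48.0, 46.1 and 42.7 CPM with ΔADAM. The groups overlapped, and the high value was again the ΔGS library of experiment 3. Its log2 fold changes were 0.05 (adjusted p = 0.849), 0.19 (adjusted p = 0.332) and 0.09 (adjusted p = 0.661). IRF3 shares 19.3% of its exonic bases with BCL2L12 on the opposite strand.

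Per length, as TPM, the counts scaled by transcript length and library total, IRF3 was the most abundant of the 9 genes in every group, with 59.5 ± 4.84 TPM (SD, n = 3) in GFP. In the GFP libraries it was followed by IFNAR2 at 31.4 ± 2.32, STAT2 at 21.0 ± 4.06, IRF9 at 19.2 ± 10.1, IFNAR1 at 8.61 ± 1.19 and IRF1 at 6.35 ± 1.92 TPM. IRF7 was at 2.05 ± 1.28, IFNB1 at 0.260 ± 0.227 and IFNL1 at 0.0221 ± 0.0384 TPM. The ranges of neighbours overlapped from STAT2 through IRF9 and IFNAR1 to IRF1, and again for IFNB1 and IFNL1, so these neighbours did not differ beyond their spread, and the other neighbours did not overlap.

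With a TYRO3 construct the order in TPM was different. STAT2 took the second place at 37.4 ± 10.7 TPM with WT, 37.9 ± 12.4 with ΔGS and 40.6 ± 13.0 with ΔADAM, with a range that overlapped the next gene. IRF1 stood above IFNAR1 without overlap, at 18.4 ± 5.03 TPM against 9.96 ± 2.40 with WT, 22.4 ± 6.95 against 8.57 ± 2.31 with ΔGS and 23.2 ± 5.65 against 9.46 ± 0.814 with ΔADAM. IFNB1 and IFNL1 stayed last.

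The substitutions that alter cleavage made no called difference in these genes. Between WT and the mean of ΔGS and ΔADAM, 0 of the 8 genes and 0% of all genes tested were called (237 genes at an unadjusted p under 0.05, and 5 genes called with DESeq2). Between ΔGS and ΔADAM the called share was likewise 0 of 8 genes and 0% of all genes (216 at an unadjusted p under 0.05, and 1 called with DESeq2). A p that misses the threshold does not show that the constructs acted alike, so the intervals are given.

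IRF1 was not close to a call, since both its adjusted p and its fold missed the thresholds. Its WT level was below the mean of ΔGS and ΔADAM by log2 values of -0.20, -0.19 and -0.48 in experiments 1, 2 and 3. The fitted difference was -0.29 (95% interval -0.52 to -0.06, unadjusted p = 0.0187, adjusted p = 1.00), lower in 3 of 3 experiments and not called. For IFNAR1, IFNAR2, STAT2, IRF9 and IRF3 the 95% intervals of the same difference together ran from -0.34 to 0.25. For IFNB1 the difference was 0.29 (-0.70 to 1.28), and for IRF7 it was -0.67 (-1.86 to 0.53), intervals too wide to place either gene.

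ΔGS and ΔADAM, which alter different cleavage sites of TYRO3, differed in IRF1 by 0.04 (95% interval -0.22 to 0.30). For the receptor chains, STAT2, IRF9 and IRF3 the intervals together ran from -0.29 to 0.39. IFNB1 was higher with ΔGS by 0.96 (-0.17 to 2.09) in 3 of 3 experiments, and IRF7 by 1.05 (-0.27 to 2.36) in 1 of 3, with neither called. TYRO3 itself differed by 0.29 (SE 0.22, adjusted p = 1.00) between these groups.

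The rest of the pathway was read from lists of genes. These lists too were chosen with earlier results of these data known, so their counts beside the share over all genes are a description only. Of 5 other IRF factors, 3 were tested, and none rose. IRF4, a factor of melanocytes and lymphocytes, fell with ΔGS by 1.00 (adjusted p = 0.0188) and with ΔADAM by 1.02 (adjusted p = 0.0163), and was at -0.81 with WT (adjusted p = 0.0567). The IRF4 call with ΔGS was lost without the GFP library of experiment 1 or any 1 of the ΔGS libraries, and that with ΔADAM without the ΔADAM library of experiment 1 or 3. Both were lost in experiments 2 and 3 alone and without the replicate block.

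Of 16 sensors, adaptors and kinases that act before IRF3 and IRF7, 15 were found among the genes with summed counts. The remaining gene was not found there, so its level was not examined. TLR7 and TLR9 were too low to test, with at most 7.14 and 4 counts in a library. The other 13 were tested, and none fell. Beside a called share of 2.35%, 4.69% and 5.19% over all genes tested, 4 rose with WT, 4 with ΔGS and 5 with ΔADAM. The RNA sensors were among them. TLR3, the endosomal receptor for double-stranded RNA, rose by 1.62, 1.69 and 1.91 with WT, ΔGS and ΔADAM, and DDX58, which encodes RIG-I, by 1.12, 1.16 and 1.17. IFIH1, which encodes MDA5, rose by 0.70, 0.73 and 0.81, and DHX58, which encodes LGP2, by 0.68, 0.79 and 0.78. The fifth gene with ΔADAM was TLR4, named here after its values were seen. With WT the number was 2 without the WT library of experiment 1 or 2 or the GFP library of experiment 2. In experiments 2 and 3 alone the numbers were 2, 2 and 3. Without the replicate block they were 0, 0 and 0, and with the single term for experiment 1 they were 0, 0 and 1. With only the groups compared they were 2, 4 and 5. The median over the 13 genes was 0.12, 0.30 and 0.26, against -0.00, 0.01 and -0.00 over all genes tested.

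Among 12 negative regulators, 4 rose with each construct and none fell. The called share of all genes tested was 2.35%, 4.69% and 5.19% with WT, ΔGS and ΔADAM. USP18, which detaches ISG15 and blocks IFNAR2 signaling, rose by 2.32, 2.54 and 2.50 with WT, ΔGS and ΔADAM. SOCS1 and SOCS3, which inhibit JAK kinases, rose by 1.85, 1.88 and 1.60 and by 0.92, 1.21 and 0.67, and TRIM21, an antibody receptor and ubiquitin ligase, by 1.10, 1.16 and 1.18. SOCS1 was low, with 0 to 43 counts and at most 1.93 CPM in a library, and USP18 had 2.57 counts in its lowest library. The median over the list was 0.13, 0.12 and 0.01. With WT the number that rose was 1 without the WT library of experiment 1 or 2, and 2 without the GFP library of experiment 2. With ΔADAM it was 2 without the GFP library of experiment 1 or 3 or any 1 of the ΔADAM libraries. In experiments 2 and 3 alone the numbers were 1, 2 and 2. Without the replicate block they were 0, 0 and 0, and with the single term for experiment 1 they were 0, 1 and 0. With only the groups compared they were 1, 3 and 3. With at least 10 counts required in every library, 9 of the 12 were tested, and 2 rose with each construct.

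Of 41 interferon-stimulated genes, 31 rose with WT, 34 with ΔGS and 33 with ΔADAM, and none fell. Over all genes tested the called share was 2.35%, 4.69% and 5.19%. All 41 had positive log2 fold changes with each construct, with medians of 1.41, 1.52 and 1.51. OAS2 and OAS1, sensors of double-stranded RNA that make the activator of RNase L, rose by 3.43, 3.51 and 3.63 and by 3.16, 3.38 and 3.51. RSAD2, the antiviral enzyme viperin, rose by 2.35, 2.71 and 2.60, and CMPK2, a mitochondrial nucleotide kinase encoded next to it, by 2.07, 2.17 and 2.29. In the library where each was lowest, OAS2 had 2 counts, OAS1 0, RSAD2 4.14 and CMPK2 6.

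These counts also depended on the libraries and the block. Without the GFP library of experiment 1 the interferon-stimulated genes called were 25, 32 and 30, and in experiments 2 and 3 alone 17, 24 and 27. Without the WT library of experiment 2, the number with WT was 18. Without the WT library of experiment 1 or the GFP library of experiment 2 it was 21. With only the groups compared, the numbers were 10, 33 and 29 with WT, ΔGS and ΔADAM. With at least 10 counts required in every library, 26 of the 41 were tested, and 18, 20 and 20 were called. Without the replicate block 0 of the 41 were called with any construct, and with the single term for experiment 1 the numbers were 0, 1 and 4. Between WT and the mean of ΔGS and ΔADAM 0 of the 41 were called, and the median difference was -0.12.

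**Figure D4:**
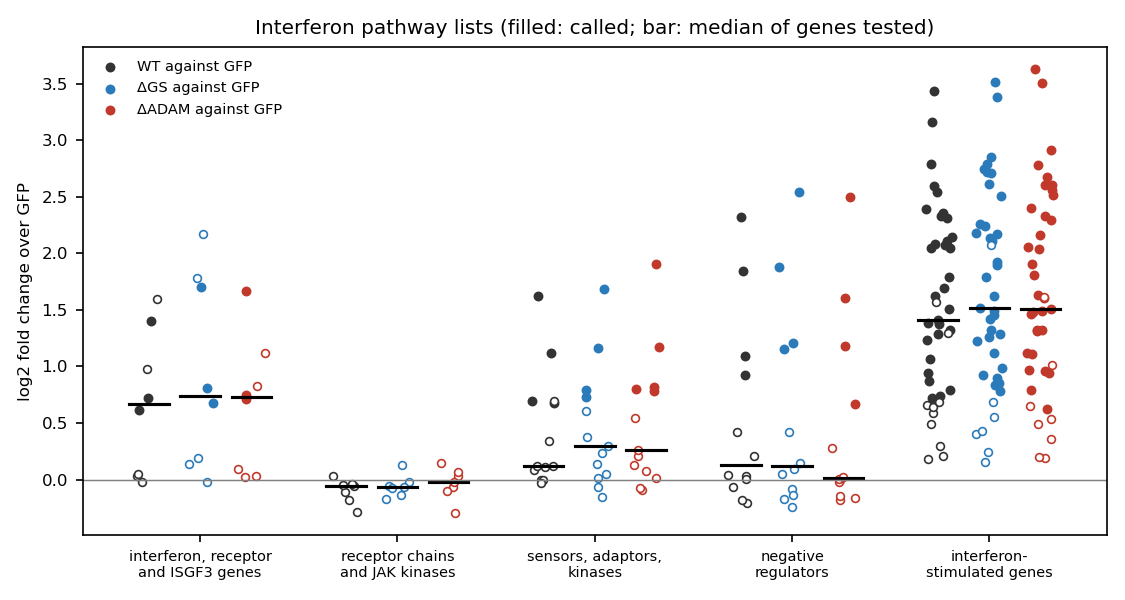
Points give the log2 fold change over GFP of each tested gene in 5 lists, from the 8 interferon, receptor and ISGF3 genes on the left to the 41 interferon-stimulated genes on the right, with colours for the 3 constructs, filled points for called genes and bars for list medians. Receptor chains and kinases lie around 0, and the interferon-stimulated genes all lie above it, with medians of 1.41 to 1.52.

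The 3 genes with the most similar profile were sought for each tested gene. Pearson's r was computed on log2 CPM centred within each experiment, over 12 libraries, against genes with a mean of at least 5 CPM, so the points share their libraries and their controls, and r is given as a description. For STAT2 the 3 closest were the chemokine CXCL10 (r = 0.993), SP100 (0.989) and PLSCR1 (0.988). For IRF9 they were HLA-B (0.994), UBE2L6 (0.991) and MX1 (0.991).

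For IRF1 the 3 closest were ASS1 (r = 0.987), ASNS (0.984) and TAF12 (0.983). For IRF3 the closest was CDC34 (0.978), for IFNAR1 UBE2O (0.937) and for IFNAR2 N4BP3 (0.918). For IRF7 it was THYN1 (0.987) and for IFNB1 EXOSC2 (0.918), but the IRF7 profile rests on the ΔGS library of experiment 3, and IFNB1 had at most 20 counts in a library.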

How the data were processed

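Per the labels, poly(A) RNA of 12 libraries was sequenced, and the authors trimmed the reads (Trimmomatic 0.33 in the submitters' processing notes) and ran kallisto 0.46.0 on Ensembl transcripts. The deposited values are estimated counts and TPM per transcript. Whether kallisto used strand is not given in the sources used here. Transcripts were matched to GENCODE release 29 (GRCh38) by identifier without version. Of 188753 transcripts 18956 were not matched, and 97.4% to 97.5% of the counts of each library were kept and summed per gene.

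Summed estimated counts were rounded and tested with edgeR 4.0.16 (R 4.3.3, quasi-likelihood, TMM, filterByExpr at 10 counts and a total of 15), with group and experiment as terms over all 12 libraries. P-values were adjusted by the Benjamini-Hochberg method over 15098 genes, and a gene was called at an adjusted p of at most 0.05 and a fold over 1.5. The study's own methods correct for experiment 1 against the others, and that term was an alternative. Nothing used here says that the libraries of a group came from separate cultures, so p-values measure the spread between these libraries. The block was used because the labels number the experiments. Deviations from group means correlated by a median of 0.260 (0.0747 to 0.424, 18 pairs) within an experiment and -0.125 (36 pairs) between experiments. CPM are TMM-scaled. DESeq2 1.42.0 and limma 3.58.1 on log2 TPM were alternatives. In counts simulated for WT against GFP over 15098 genes with 200 changed, 75, 143 and 180 were recovered at folds of 1.5, 2 and 4, with 7, 13 and 14 false calls.

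The members and the gene lists were chosen with earlier results of these data known. Beside the members, up to 4 genes of each pathway list were named, those with the smallest adjusted p in any comparison with GFP, and for each tested member the 3 most alike genes were sought. One of the listed genes is not reported here. The fits on protein-coding transcripts alone and with readthrough counts added were chosen after seeing the data. The depth limits IFNB1 and IFNL1, and limits set by 0 counts use 3 counts and cover counting error only. Figures were drawn with matplotlib 3.10.9.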

Additional observations from a re-analysis of the deposited data

How the results depend on the processing

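The paired analysis matters most. Without the replicate block, 3, 4 and 5 genes of all were called with WT, ΔGS and ΔADAM against GFP and 0, 0 and 0 of the 8 tested genes, and with a term for experiment 1 in place of the block 6, 69 and 168 genes and 0, 1 and 1 of the 8. With experiments 2 and 3 alone and the replicate block, 47, 189 and 218 genes and 1, 1 and 1 of the 8 were called. In that fit IFNAR1 was at -0.0866 with WT, -0.0233 with ΔADAM and -0.0128 for WT against the mean of ΔGS and ΔADAM, a change of sign. With only the groups compared, 30 genes were called with WT, among them 1 of the 8, and 469 with ΔGS. The last fits also held fewer libraries, and the causes of these differences were not tested.

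DESeq2 called 610 genes with WT, 5 for WT against the mean of ΔGS and ΔADAM and 1 for ΔGS against ΔADAM. With no filter on low counts these were 577 with WT and 2 for WT against the mean. Limma on log2 TPM called 233, 418 and 499 genes with a pseudocount of 1 and 228, 423 and 518 with 0.1, and with no threshold on the fold 541, 1352 and 1537 were called. Limma turned IFNAR2 with ΔADAM to -0.0625 and -0.0643, and for ΔGS against ΔADAM it turned IRF9 to -0.0442 and -0.0454 and IRF1 to -0.0653 and -0.0688 (pseudocounts 1 and 0.1). IRF9 was not called in it (adjusted p of 0.138, 0.105 and 0.0889 with a pseudocount of 1). IRF7 with ΔGS was called by DESeq2 (adjusted p = 0.0107) and with no filter (adjusted p = 0.0215). In fits chosen after seeing the data, adding readthrough counts turned IFNAR2 with WT to 0.11, and protein-coding transcripts alone left 1 of the 8 called with WT and turned STAT2, WT against the mean, to 0.29.

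Leaving out 1 library in turn gave 79 to 606 genes called with WT, 269 to 777 with ΔGS, 198 to 870 with ΔADAM and 0 to 1 for ΔGS against ΔADAM, and 1 to 3 of the 8 with WT and 1 to 4 with ΔADAM. Small values crossed 0. IFNAR1 ran from -0.0596 to 0.120 with WT, -0.113 to 0.0680 with ΔGS, -0.0861 to 0.109 with ΔADAM, -0.0439 to 0.0844 for WT against the mean and -0.126 to 0.0593 for ΔGS against ΔADAM. IFNAR2 ran from -0.0754 to 0.0169 with WT and -0.0213 to 0.0919 with ΔADAM, and IFNB1 from -0.384 to 1.60 with ΔADAM and -0.0262 to 0.568 for WT against the mean. For WT against the mean IRF9 ran from -0.119 to 0.0110 and IRF3 from -0.139 to 0.00134. For ΔGS against ΔADAM STAT2 ran from -0.139 to 0.105, IRF9 from -0.0143 to 0.140, IRF7 from -0.152 to 1.66, IRF1 from -0.0296 to 0.139 and IRF3 from -0.0798 to 0.198. IRF1 against GFP stayed between 1.27 and 1.86 in every fit run.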
